A study of Mus musculus with 35 samples.

Results

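The mitochondrial respiratory chain genes described here were 77 of the 18193 genes measured in mouse liver. They were chosen by symbol alone, as genes named for subunits of complex I (Ndufa, Ndufb, Ndufc, Ndufs and Ndufv), complex II (Sdha to Sdhd), complex III (Uqcr) and complex IV (Cox4 to Cox8). No expression value entered the choice. By the role of the product, the 77 genes were 6 core and 28 accessory subunits of complex I, 4 subunits of complex II, 8 of complex III and 9 of complex IV in their general or liver forms. The symbols also caught 8 assembly factors of complex I and 4 of complex II, 7 isoforms of complex IV typical of other tissues or conditions, the Ndufa4 and Ndufa4l2 pair, and Cox7a2l, a supercomplex factor. The RNA came from whole liver, so fewer cells of a type and less RNA per cell cannot be told apart.

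Male CB6F1 hybrid mice were young (5 to 6 months, from Jackson) or old (25 to 27 months, from NIA), so age and supplier cannot be told apart. Livers were taken untreated at 0 h (3 arrays per age) or 24, 38 and 48 h after removal of 70% of the liver (partial hepatectomy, PH, 3 arrays per age and time). Sham-operated mice had the liver handled but not resected and gave 2, 1 and 2 arrays in young and 2, 2 and 2 in old at the same times. PH and sham mice both had avertin and isoflurane. The values are log2 signals of 35 arrays. Whether replicates were separate animals is not stated in the labels, and the p-values then measure only sample-to-sample spread, which may be technical. "Rose" and "fell" are used for an adjusted p under 0.05 over all 18193 genes in limma, and differences are log2 differences ± the standard error of that fit.

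The respiratory chain of the inner mitochondrial membrane passes electrons from NADH (through complex I) or from succinate (through complex II, which is also the succinate dehydrogenase of the citric acid cycle) to ubiquinone, then through complex III and cytochrome c to complex IV, which reduces oxygen. Complexes I, III and IV pump protons, and the gradient drives ATP synthase. All subunits measured here are encoded in the nucleus, and those of complex II are entirely nuclear, whereas the other complexes also hold subunits made from mitochondrial DNA. After partial hepatectomy the remaining hepatocytes, which are rich in mitochondria, enter the cell cycle and restore liver mass while metabolism goes on.

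Nuclear genes of the chain are known targets of the transcription factors NRF1 and GABP, an ETS-family factor, and the members were therefore searched for their motifs. Promoters of 63 of the 77 genes were matched by symbol in RefSeq (GRCm38.p6), and the 250 bases before each start were searched on both strands. The palindromic NRF1 consensus with any base at its centre, whose letters are those in capitals in the Sdha sequence below, was present in 8 of 63 (12.7%, against 3.86% of all 27025 promoters) and the ETS motif CCGGAAG in 12 (19.0%, against 7.05%). Either motif was present in 18 (28.6%, against 10.3%), and 2 promoters held both. No matches overlapped. A match describes the letters of a window and is not evidence of binding. The upstream sequences of 4 genes on which the results below turn are shown, with motif matches in capitals (an ETS match on the opposite strand reads CTTCCGG). These are Sdha (chr13:74350241-74350490, minus strand, 3 NRF1 matches with first bases 98, 55 and 10 before the start), Sdhd (chr9:50603850-50604099, minus strand, 1 NRF1 match 79 and 1 ETS match 46 bases before it), Ndufa8 (chr2:36049339-36049588, minus strand, 1 NRF1 match 30 bases before it) and Cox6b2 (chr7:4753095-4753344, minus strand, neither motif).
Sdha: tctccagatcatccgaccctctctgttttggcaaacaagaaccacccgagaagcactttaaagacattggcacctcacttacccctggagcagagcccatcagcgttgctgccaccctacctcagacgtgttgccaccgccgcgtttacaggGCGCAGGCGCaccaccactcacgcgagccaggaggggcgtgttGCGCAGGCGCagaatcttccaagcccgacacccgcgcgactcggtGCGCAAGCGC
Sdhd: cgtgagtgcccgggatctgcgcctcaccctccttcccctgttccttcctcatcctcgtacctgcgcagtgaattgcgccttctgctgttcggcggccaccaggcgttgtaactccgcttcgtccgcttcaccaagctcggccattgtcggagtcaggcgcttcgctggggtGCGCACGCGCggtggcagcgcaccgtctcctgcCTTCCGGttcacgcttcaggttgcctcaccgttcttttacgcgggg
Ndufa8: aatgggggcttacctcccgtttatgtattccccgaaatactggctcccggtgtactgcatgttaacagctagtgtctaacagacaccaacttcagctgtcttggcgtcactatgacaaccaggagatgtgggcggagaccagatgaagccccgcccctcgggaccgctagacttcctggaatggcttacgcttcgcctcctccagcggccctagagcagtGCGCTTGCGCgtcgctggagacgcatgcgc
Cox6b2: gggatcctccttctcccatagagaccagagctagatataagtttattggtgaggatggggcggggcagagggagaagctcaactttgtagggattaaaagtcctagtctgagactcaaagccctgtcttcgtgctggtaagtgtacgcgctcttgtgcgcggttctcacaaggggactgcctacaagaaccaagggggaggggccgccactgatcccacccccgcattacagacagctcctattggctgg

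Against untreated livers, Sdha and Sdhd, with matches, fell in the old regenerating liver described below, while Ndufa8, also with a match, rose. Cox6b2, with neither, had the largest change of the 77 genes. The motif content is given beside these values as a description only.

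The arrays of old livers at 24 and 38 h after PH were less alike than those of other groups. Their median correlation with the other arrays of their group was 0.965 to 0.980 and 0.946 to 0.970, and the lowest were old 38 h replicate 3 (0.946) and old 24 h replicate 1 (0.965). The labelled tissue was borne out by 9 hepatocyte markers, whose mean log2 level was 14.37 to 14.38 in old untreated livers and 14.09 to 14.30 and 14.06 to 14.33 at 24 and 38 h after PH in old mice. In the same groups, 6 neutrophil markers were at 8.36 to 9.11 and 7.88 to 9.20, against 7.32 to 8.78 untreated, and 7 adipose markers at 7.54 to 8.73 and 7.59 to 8.88, against 6.87 to 6.94. The difference between the 3' and 5' probe sets of Gapdh, a sign of RNA integrity, was 0.293 and 0.269 on old 38 h replicates 1 and 2, against 0.049 to 0.215 on the other arrays. The same difference for Actb was 0.794 to 1.075 on old untreated arrays, 0.452 to 0.669 at 24 h, 0.620 to 1.042 at 38 h and 0.573 to 0.706 at 48 h after PH in old mice, and 0.713 to 0.857 on young untreated arrays against 0.536 to 0.887 on young PH arrays. The old untreated and old 24 h PH arrays thus did not overlap. The part of these differences in the results on old livers was not tested.

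The distribution of signals also differed between groups, which bears on the members because most are bright. The upper decile of the signals of all genes was 10.94 to 11.06 on untreated arrays, 10.73 to 10.90 on sham arrays, and 10.85 to 10.96 and 10.84 to 10.94 on PH arrays at 24 and 38 h. At 48 h no PH array was below 10.91. Splits between rises and falls after quantile normalization was repeated are therefore given beside the counts where they moved. Of the 77 genes, 7 were dim, with a mean below the 40th percentile of all genes (7.59).

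Compared with untreated livers, respiratory chain genes of young mice moved in both directions after PH and mostly upwards by 48 h. In old mice more fell than rose at all 3 times, but at 38 and 48 h not under all alternatives given below. In young livers 10 genes rose and 6 fell at 24 h, 16 rose and 9 fell at 38 h, and 18 rose and 6 fell at 48 h. Of all genes, 17.4%, 31.7% and 27.9% passed in either direction in these comparisons, with 7.82%, 15.2% and 13.4% rising and 9.56%, 16.5% and 14.5% falling. In old livers 4 rose and 26 fell at 24 h, 6 rose and 24 fell at 38 h, and 4 rose and 9 fell at 48 h. Of all genes, 24.3%, 38.4% and 16.9% passed in either direction, with 11.7%, 21.8% and 8.28% rising and 12.6%, 16.6% and 8.62% falling. The 26 falls at 24 h were 33.8% of the 77 genes and the 24 falls at 38 h were 31.2%. At 48 h in old livers 16.9% of members passed, equal to the share of all genes, with 5.19% rising and 11.7% falling. In young livers 20.8%, 32.5% and 31.2% of members passed at the 3 times, near the shares of all genes. The 3 comparisons of an age share the untreated arrays.

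The median difference of the 77 genes was 0.07, 0.04 and 0.12 in young livers at the 3 times, against 0.02, 0.00 and -0.01 over all genes. In old livers it was -0.16, -0.10 and -0.07, against 0.03, 0.08 and 0.02. In old livers 57 of 77 genes lay below the untreated mean at 24 h and 51 at 38 h. In young livers 48 of 77 lay above it at 48 h. The counts depended on 1 library in several comparisons. Without old PH 24 h replicate 1 the old 24 h comparison gave 1 rise and 16 falls, and without old untreated replicate 1 the old 38 h comparison gave 4 rises and 15 falls. The old 48 h count of 13 became 8 without old untreated replicate 1 and 6 (4 rises, 2 falls) without old PH 48 h replicate 2. The young 24 h count of 16 became 6 and 3 without untreated replicates 1 and 3 and 9, 8 and 9 without PH replicates 1, 2 and 3. The young 38 h count of 25 became 16 without untreated replicate 1. When quantile normalization was repeated on the deposited values, the old 38 h comparison gave 10 rises and 8 falls, the young 24 h one 13 and 4, and the young 38 h one 21 and 6.

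**Figure D1:**
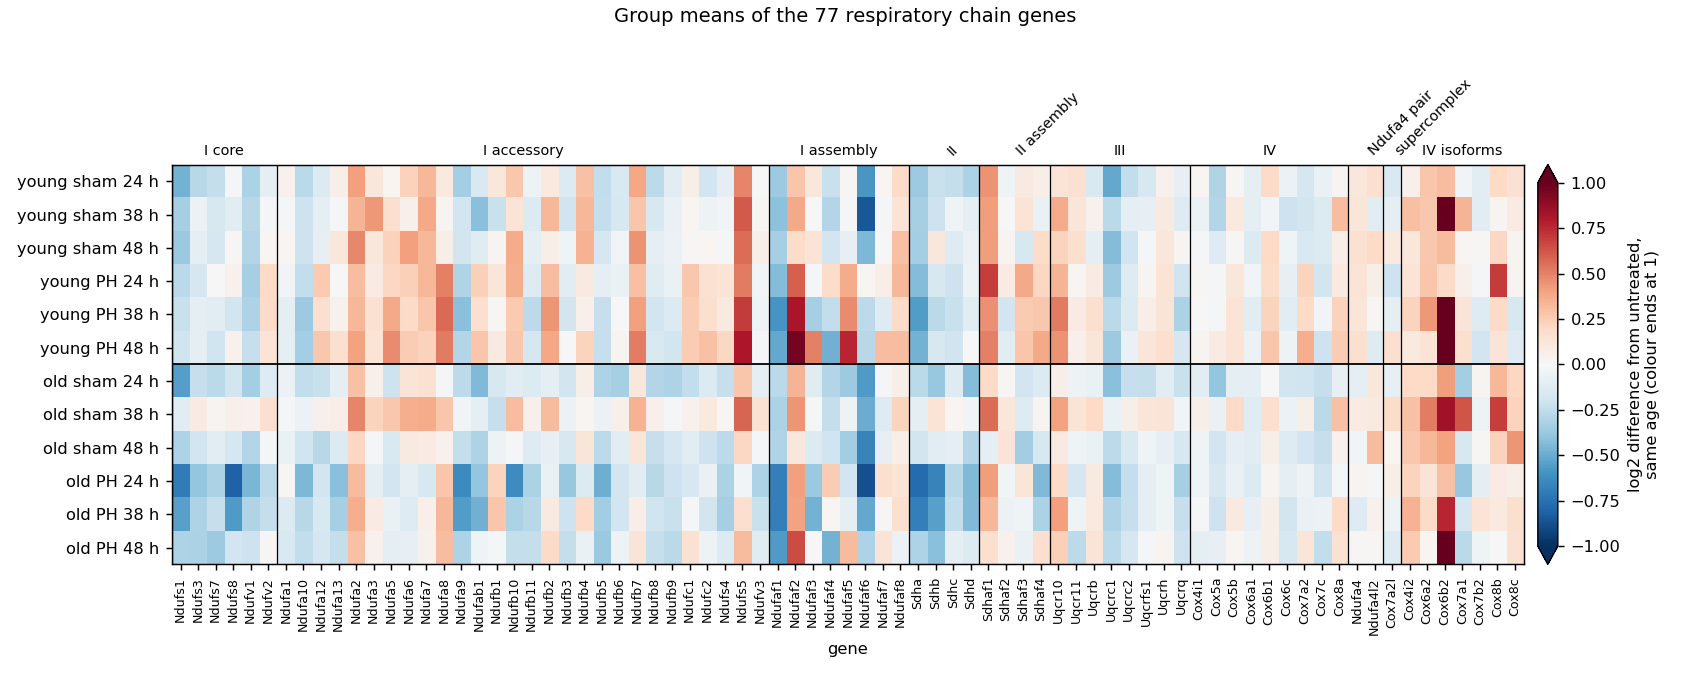
Each column is 1 of the 77 genes, grouped by role, and each row a sham or PH group. Colour is the group mean minus the untreated mean of the same age (log2, colour ends at -1 and 1). Complex II and the core of complex I are on the lower side in old livers 24 and 38 h after PH, and Cox6b2 is past the colour end at 48 h in both ages.

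All 4 subunits of complex II fell against untreated livers in old mice at 24 h and again at 38 h. Of these only Sdhb passed at 48 h, and in young livers only Sdha passed, at each of the 3 times. The shares of all genes in these comparisons are given above. Sdha encodes the flavoprotein that oxidises succinate, Sdhb the iron-sulfur subunit, and Sdhc and Sdhd the membrane anchors. Sdha was at 13.10, 12.93 and 12.87 in untreated old livers, at 11.91, 12.30 and 12.40 at 24 h after PH, at 12.49, 12.52 and 11.85 at 38 h, and at 12.66, 12.64 and 12.67 at 48 h. Every PH array of old livers lay below every untreated one. Its difference was -0.76 ± 0.13 at 24 h (adjusted p = 0.000235 in limma) and -0.68 ± 0.13 at 38 h (adjusted p = 0.000408). In young livers Sdha was at 13.16, 12.96 and 13.20 untreated and at 12.64, 12.70 and 12.67, then 12.52, 12.43 and 12.67, then 12.60, 12.74 and 12.56 after PH. These arrays also lay below all untreated ones, with differences of -0.43 ± 0.13 (adjusted p = 0.0229), -0.56 ± 0.13 (adjusted p = 0.00191) and -0.47 ± 0.13 (adjusted p = 0.00875, all limma). Young sham arrays, at 12.68 to 12.79, lay below all untreated ones as well. As a mean over the sham times the young difference was -0.35 ± 0.12 (adjusted p = 0.0263 in limma), and Sdha did not pass against sham in young livers. Old sham arrays, at 12.61 to 12.90, lay between the old untreated level and the 24 h PH level, except that 1 sham array was within the untreated range. The other bright Sdha probe set, at a mean of 12.53, differed by -1.07 at 24 h in old livers, while 2 dim ones, at 5.57 and 5.83, differed by -0.17 and 0.01.

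Sdhb was at 12.87, 12.95 and 12.87 in untreated old livers and at 12.20, 12.31 and 12.17 at 24 h after PH. It was at 12.59, 12.28 and 12.20 at 38 h and at 12.59, 12.26 and 12.58 at 48 h. No old PH array reached an untreated one. The differences were -0.67 ± 0.11 (adjusted p = 0.000233), -0.54 ± 0.11 (adjusted p = 0.000963) and -0.42 ± 0.11 (adjusted p = 0.0121, all limma). In young livers Sdhb did not pass, and its arrays at 12.85, 12.71 and 12.59 at 24 h overlapped the untreated 12.89, 12.92 and 12.81. The anchor Sdhd was at 13.06, 13.09 and 12.92 in untreated old livers and at 12.54, 12.51 and 12.67 at 24 h. It was at 12.64, 12.63 and 12.46 at 38 h, again below all untreated arrays. The old 24 h sham arrays of Sdhd, at 12.56 and 12.63, lay within the 24 h PH range. As a mean over the sham times Sdhd differed by -0.25 ± 0.08 from untreated in old livers (adjusted p = 0.0201 in limma). Against sham at 24 h in old livers, only Sdha of complex II passed. The other anchor, Sdhc, differed by -0.28 ± 0.09 at 24 h in old livers (adjusted p = 0.0188 in limma). With only the arrays compared in the fit, Sdha and Sdhb still passed at 24 h (adjusted p = 0.0442 and 0.0193 in limma) and not at 38 h (0.0843 and 0.0569). Without the 2 arrays least like their group, the 38 h differences of both were -0.46.

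As a set, the median of the 4 complex II genes relative to the untreated mean was -0.59, -0.55 and -0.46 on the old 24 h arrays, -0.34, -0.42 and -0.63 at 38 h and -0.24, -0.28 and -0.20 at 48 h. On the young arrays it was -0.10, -0.19 and -0.25 at 24 h, -0.32, -0.32 and -0.09 at 38 h and -0.30, -0.05 and -0.20 at 48 h. At 24 h the arrays of the 2 ages did not overlap, and at 38 h every old array lay below every young one. At 48 h the ranges overlapped. Old sham livers at 24 h were also below untreated, at -0.38 and -0.27.

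**Figure D2:**
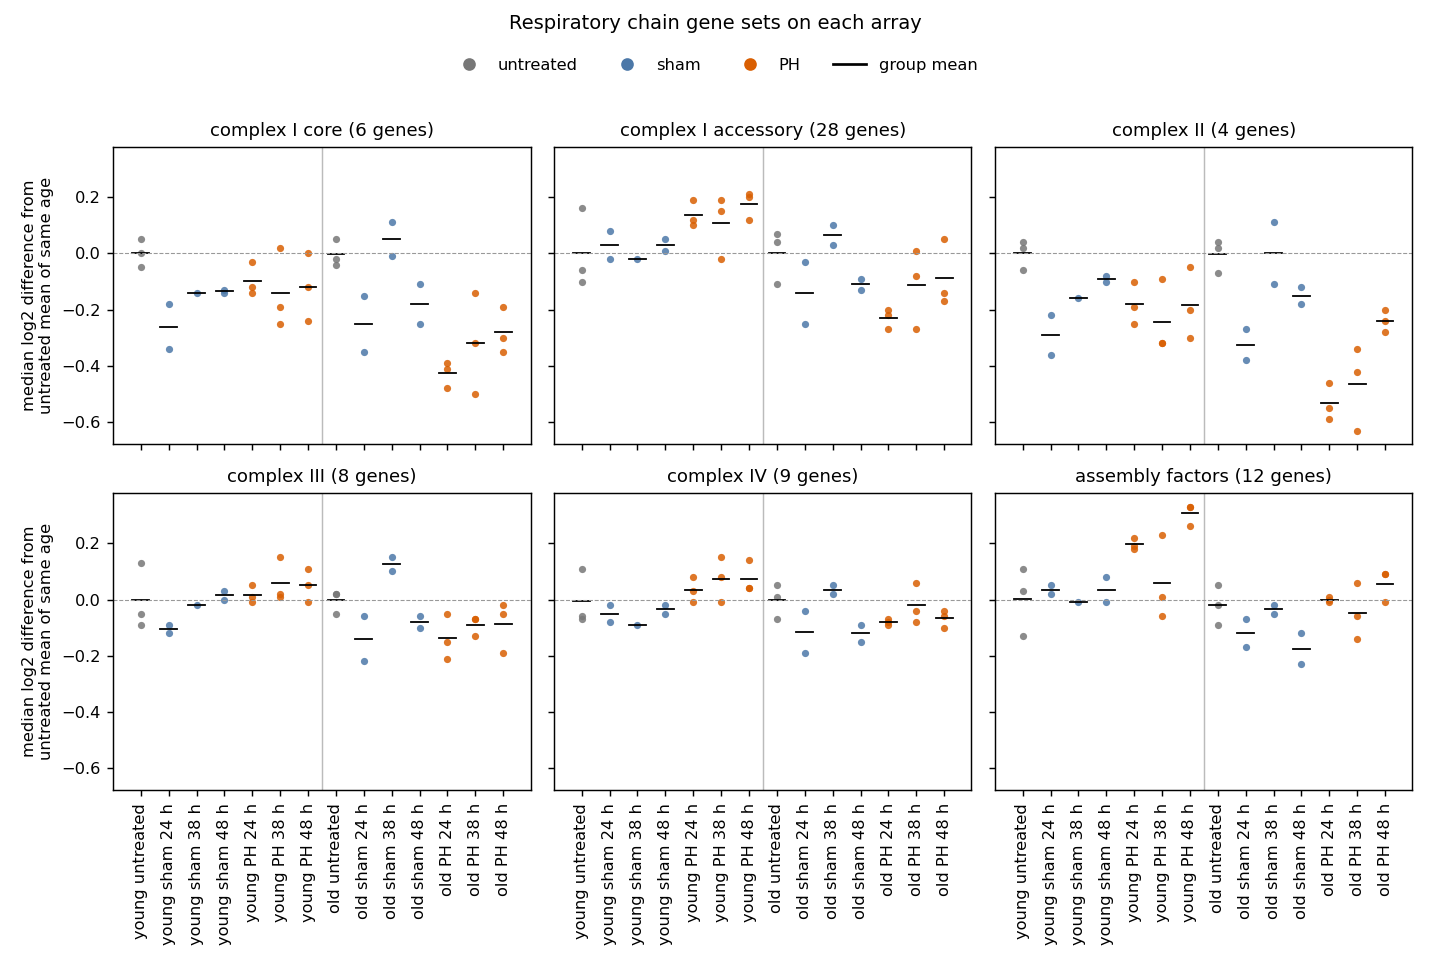
Each point is 1 array, and its height is the median over the genes of a set of the log2 level minus the untreated mean of the same age, for the core and accessory subunits of complex I, complexes II, III and IV, and the assembly factors. Old arrays at 24 h after PH lie below 0 in complex II (-0.59 to -0.46) and in the core of complex I (-0.48 to -0.39).

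The core subunits of complex I, which carry the flavin and iron-sulfur clusters, only fell. In old livers 5 of the 6 fell at 24 h, 3 at 38 h and 2 at 48 h. In young livers 1 fell at each time, and none rose at either age, to be read against the shares of all genes given above. Ndufs1, the largest subunit and a carrier of iron-sulfur clusters, was at 11.48, 11.39 and 11.20 in untreated old livers and at 10.45, 10.78 and 10.75 at 24 h after PH. At 38 h it was at 11.12, 11.01 and 10.33, the last being replicate 3, and at 48 h at 11.06, 10.96 and 11.13. All of these lay below the untreated arrays. The difference was -0.70 ± 0.14 at 24 h (adjusted p = 0.00132) and -0.54 at 38 h (adjusted p = 0.00597, limma). The 38 h difference became -0.29 without the 2 least alike arrays. The 24 h sham arrays of old livers, at 10.69 and 10.93, overlapped the 24 h PH arrays.

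Ndufs8, an iron-sulfur subunit next to the quinone site, was at 12.71, 12.77 and 12.73 in untreated old livers and at 11.26, 12.14 and 12.39 at 24 h after PH. The first of these, replicate 1, was far below the other 2, and all 3 lay below the untreated and the sham arrays (12.49 to 12.86). The difference was -0.81 ± 0.23 (adjusted p = 0.0124 in limma), and it was -0.48 without replicate 1 (adjusted p = 0.131). Its 5 other probe sets differed by -1.16 to -0.38 at 24 h in old livers. In young livers at 24 h Ndufs8 was at 12.68, 12.69 and 12.60. Ndufv1, which binds NADH, fell in both ages at 24 h. It was at 12.34, 12.21 and 12.21 in untreated young livers and at 12.01, 11.90 and 11.86 at 24 h, with a difference of -0.33 ± 0.08 (adjusted p = 0.00816 in limma). In the old it was at 12.24, 12.16 and 12.07 untreated and at 11.70, 11.74 and 11.65 at 24 h. In neither age did the untreated and 24 h PH arrays overlap. The 24 h sham arrays, at 11.97 and 11.90 in young and 11.70 and 11.93 in old livers, overlapped the PH arrays.

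Against untreated livers, accessory subunits of complex I passed as rises more often than as falls in young livers, and the reverse in old ones. In young livers 5 rose and 1 fell at 24 h, 7 rose and 3 fell at 38 h, and 7 rose and 1 fell at 48 h. In old livers 2 rose and 11 fell, 2 rose and 10 fell, and 2 rose and 4 fell. These counts are to be read against the shares of all genes given above. Over all members, rises outnumbered falls in old livers at 38 h once quantile normalization was repeated, as given above. The median of the 28 genes was 0.19, 0.10 and 0.12 on the young 24 h arrays and -0.27, -0.20 and -0.22 on the old ones. At 48 h it was 0.12, 0.20 and 0.21 in young and -0.14, -0.17 and 0.05 in old. Old sham arrays were at -0.25 and -0.03 at 24 h and at -0.13 and -0.09 at 48 h. Ndufa8, a subunit of the intermembrane-space side, rose over untreated livers in both ages at all 3 times. It was at 11.90, 12.13 and 11.82 in untreated young livers, 12.56, 12.41 and 12.37 at 24 h, 12.54, 12.47 and 12.54 at 38 h and 12.36, 12.50 and 12.56 at 48 h. Old livers had Ndufa8 at 11.85, 12.08 and 12.05 untreated, 12.28, 12.32 and 12.21 at 24 h, 12.34, 12.33 and 12.31 at 38 h and 12.19, 12.21 and 12.50 at 48 h. All PH arrays were above all untreated arrays of their age. The old 38 h sham arrays, at 12.16 and 12.39, lay on either side of the PH ones. Against sham, Ndufa8 did not pass in old livers, and in young livers it rose at 38 and 48 h. The difference was largest in young livers at 38 h, at 0.57 ± 0.09 (adjusted p = 3.79e-05 in limma), and the old 24 h difference was 0.28 ± 0.09 (adjusted p = 0.0257).

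Ndufs5, also an accessory subunit of that side, rose in young livers at the 3 times and passed at none of them in old livers. It was at 10.86, 11.19 and 10.81 in untreated young livers and at 11.68, 11.69 and 11.91 at 48 h, a difference of 0.81 ± 0.15 (adjusted p = 0.000333 in limma). The young sham arrays, at 11.39 to 11.56, were also above the untreated ones. In old livers Ndufs5 was at 10.92, 11.21 and 11.19 untreated and at 10.82, 11.19 and 11.23 at 24 h, with overlap. Ndufb10 lay on opposite sides of untreated in the 2 ages at 24 h, but passed only in old livers (young adjusted p = 0.199 in limma). It was at 11.09, 11.33 and 11.06 in untreated young livers and 11.53, 11.54 and 11.50 after PH, but at 11.18, 11.48 and 11.32 in untreated old livers and 10.44, 10.81 and 10.84 after PH. The young 24 h sham arrays, at 11.52 and 11.34, were also above the untreated ones. The old 24 h sham arrays were at 11.07 and 11.36. Among the falls, Ndufa9, a subunit near the quinone site, differed by -0.56 ± 0.12 in old (adjusted p = 0.000814) and -0.42 ± 0.12 in young livers at 38 h (adjusted p = 0.00679, limma).

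Ndufab1, the mitochondrial acyl carrier protein that complex I shares with fatty acid synthesis, also differed by age. It was at 12.14, 12.35 and 12.12 in untreated young livers and at 12.42, 12.48 and 12.42 at 24 h. The old livers had it at 12.23, 12.40 and 12.33 untreated and at 11.70, 12.01 and 12.07 at 24 h and 12.00, 12.00 and 11.53 at 38 h. The young 24 h arrays were above and the old ones below their untreated arrays, but the young difference did not pass (adjusted p = 0.147 in limma). In old livers at 24 h all 5 Ndufab1 probe sets were lower (-0.78 to -0.39). In young livers the brightest differed by 0.24 and the other 4 by -0.70 to 0.04, so the direction in young livers depends on the probe set.

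Assembly factors, which build the complexes but are not part of them, moved in both directions. Of the 8 complex I factors caught by symbol, 5 rose and 1 fell against untreated in young livers at 48 h. In old livers 1 rose and 1 fell, and both counts are to be read against the shares of all genes given above. Ndufaf2, which helps assemble the NADH-oxidising module, was at 8.18, 8.32 and 7.94 in untreated young livers, 8.73, 8.69 and 8.83 at 24 h, 8.78, 8.85 and 9.27 at 38 h and 9.05, 9.01 and 9.26 at 48 h. All PH arrays lay above all untreated and sham arrays of young livers. Old livers had it at 8.0, 8.36 and 8.07 untreated and 8.71, 8.65 and 9.04 at 48 h, with sham arrays between 8.15 and 8.80. Its difference at 48 h was 0.96 ± 0.15 in young (adjusted p = 4.02e-05) and 0.65 ± 0.15 in old livers (adjusted p = 0.00392, limma). Ndufaf1, a factor of the membrane arm, went the other way in both ages. It was at 10.42, 10.36 and 10.48 in untreated young livers and between 9.70 and 10.03 on the 48 h arrays, and at 10.51, 10.22 and 10.18 in untreated old livers and 9.62, 9.66 and 9.91 at 48 h. No arrays overlapped, and the difference was -0.51 ± 0.12 (adjusted p = 0.00266) in young and -0.57 ± 0.12 (adjusted p = 0.00182, limma) in old livers.

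Ndufaf5, a methyltransferase that modifies a core subunit, was at 7.97, 8.06 and 7.80 in untreated young livers and at 8.60, 8.81 and 8.70 at 48 h. Its sham arrays, at 7.80 to 7.95, were at the untreated level. The rise at 48 h was 0.76 ± 0.17 (adjusted p = 0.00125 in limma). In old livers it was at 7.99, 7.94 and 7.93 untreated, 7.55, 7.78 and 7.95 at 24 h, 8.14, 8.21 and 7.21 at 38 h and 8.14, 8.21 and 8.46 at 48 h, the single low value at 38 h being replicate 3. Ndufaf6 was at 9.38, 9.38 and 9.23 in untreated old livers and fell without overlap to 8.33, 8.20 and 8.82 at 24 h after PH. The difference was -0.88 ± 0.22 (adjusted p = 0.00496 in limma). The old 24 h sham arrays, at 8.83 and 8.70, were also below the untreated ones, and the lower lay within the PH range. Young 24 h PH livers, at 9.46, 9.52 and 9.33, lay within the untreated range of 9.17 to 9.62. The young 24 h sham arrays, at 8.95 and 8.72, lay below that range. Of the 4 complex II factors, Sdhaf1, which inserts iron-sulfur clusters into Sdhb, rose by 0.68 ± 0.14 in young (adjusted p = 0.0012) and by 0.42 ± 0.14 in old livers at 24 h (adjusted p = 0.0251, limma), while the catalytic subunits Sdha and Sdhb fell in those old livers.

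Complex III genes moved in both directions. In young livers 0, 1 and 1 of its 8 genes rose and 2, 2 and 2 fell at 24, 38 and 48 h, and in old livers 0, 1 and 0 rose and 3, 3 and 1 fell, to be read against the shares of all genes given above. Uqcrq was among the falls each time and was the only one in old livers at 48 h. Its 4 probe sets did not all have the same sign, except in young livers at 48 h. Uqcrc1, a core protein, was at 13.05, 13.12 and 13.10 in untreated young livers and at 12.83, 12.70 and 12.67 at 24 h, a difference of -0.36 ± 0.10 (adjusted p = 0.016 in limma). Young sham arrays, at 12.43 to 12.82, were also below the untreated ones. In old livers Uqcrc1 was at 13.07, 12.93 and 12.82 untreated and 12.50, 12.51 and 12.53 at 24 h. Uqcr10, a small subunit, rose by 0.52 in young and by 0.41 ± 0.13 (adjusted p = 0.0148 in limma) in old livers at 38 h.

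Some general subunits of complex IV rose in young livers. In young livers 1, 3 and 3 of its 9 genes rose at 24, 38 and 48 h and none fell, where 7.82%, 15.2% and 13.4% of all genes rose, and in old livers only 2 passed, both falls at 38 h. Among the young rises at 38 and 48 h was Cox8a, whose probe sets did not all have the same sign. Cox4i1, a subunit common to most tissues, passed in none of the 22 comparisons and stayed between 13.18 and 13.47 on all arrays. Cox7a2, the liver form of subunit VIIa, was at 13.48, 13.76 and 13.52 in untreated young livers and at 13.91, 13.99 and 13.94 at 48 h after PH. Young sham livers at 48 h were at 13.42 and 13.47, so the PH arrays lay above both. In old livers it was at 13.53, 13.65 and 13.62 untreated, 13.36 and 13.45 after sham and 13.65, 13.71 and 13.81 after PH at 48 h. Its rise over sham at 48 h was 0.50 ± 0.09 in young (adjusted p = 0.000182) and 0.32 ± 0.09 in old livers (adjusted p = 0.0146, limma).

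**Figure D3:**
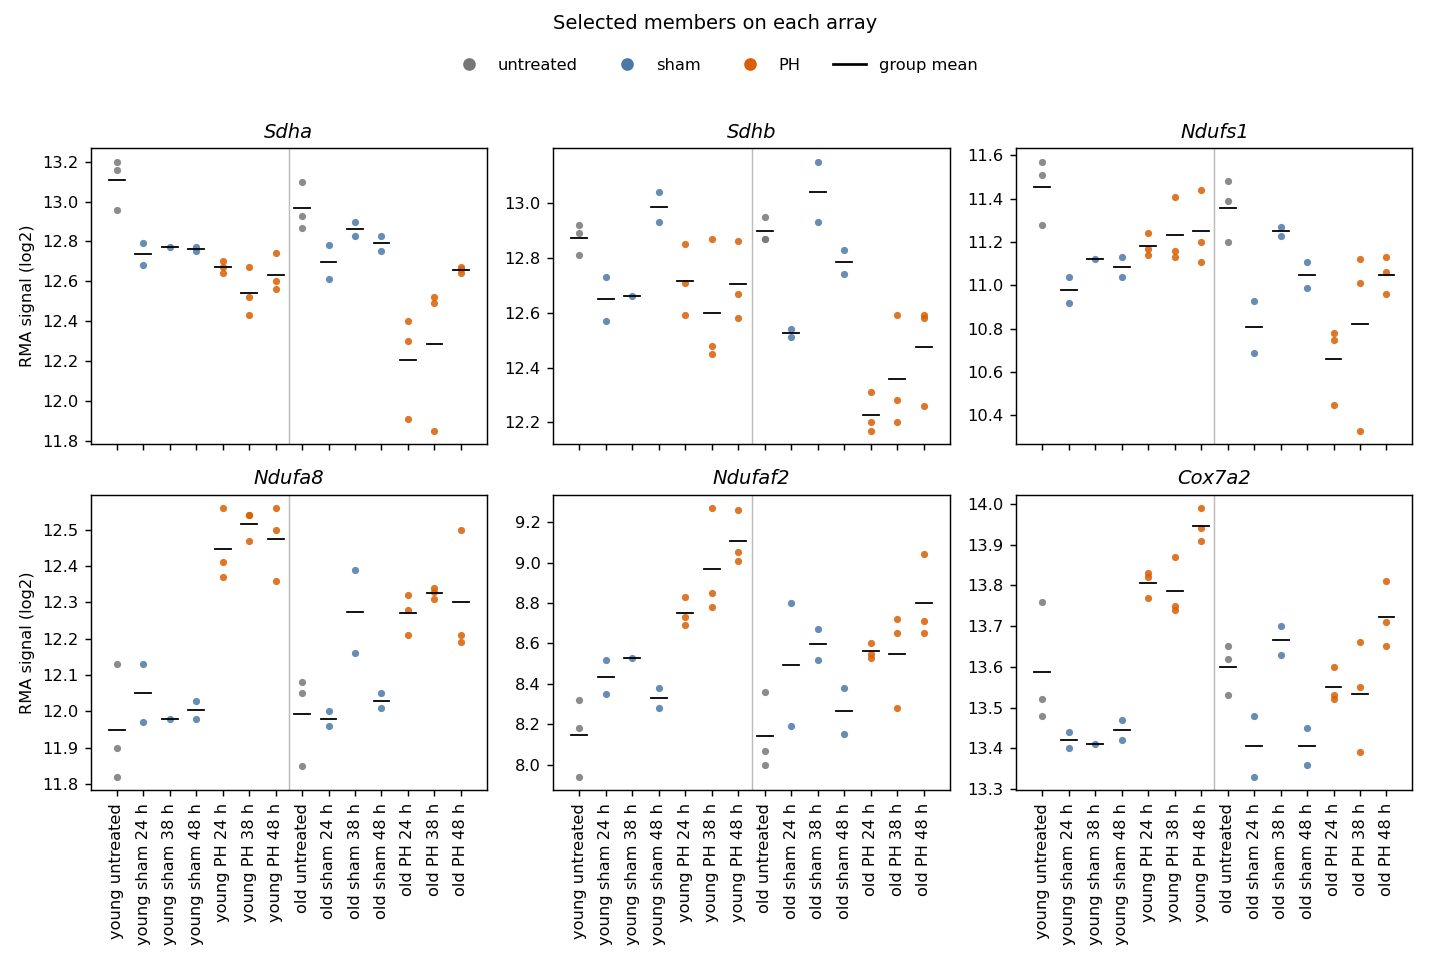
Each point is 1 array of Sdha, Sdhb, Ndufs1, Ndufa8, Ndufaf2 or Cox7a2, on the log2 signal scale by group. Sdha reaches 11.85 and 11.91 on old PH arrays, and Ndufa8 lies higher on the PH arrays of both ages (12.19 to 12.56) than on the untreated ones (11.82 to 12.13).

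Cox6b2, the testis-type form of subunit VIb, had the largest change of the 77 genes. It was among the 7 dim genes, and in untreated livers it was at 6.51, 6.26 and 5.80 in young and 5.86, 6.00 and 6.10 in old. At 24 h after PH it was at 6.55, 6.17 and 6.43 in young and 6.41, 6.17 and 6.25 in old livers. At 38 h it was at 7.91, 7.70 and 8.22 in young and 7.10, 6.74 and 6.40 in old. At 48 h it was at 9.0, 9.09 and 8.83 in young and 8.64, 8.13 and 8.13 in old livers. The 48 h sham arrays were at 6.46 and 6.57 in young and 6.41 and 6.36 in old, so no array overlapped.

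Cox6b2 rose over sham at 48 h by 2.46 ± 0.19 in young (adjusted p = 1.51e-08) and 1.91 ± 0.19 in old livers (adjusted p = 8.13e-07, limma). Over the alternatives tried, these were 2.14 to 2.54 and 1.74 to 2.00. The sham and untreated levels lay below 7.59, the limit for dim genes, where RMA signals are compressed near background, so the differences may understate the change and give no exact fold. At 38 h it rose over untreated livers by 1.76 ± 0.17 in young (adjusted p = 1.66e-07) and by 0.76 ± 0.17 in old (adjusted p = 0.00168, limma). The comparison with sham at 38 h in young livers rested on 1 sham array, which was itself at 8.16, within the PH range, and Cox6b2 did not pass there. The old 38 h sham arrays, at 6.84 and 6.82, also lay within the old PH range, and Cox6b2 did not pass against sham in old livers at 38 h. Its general counterpart Cox6b1 was at 13.11, 13.32 and 13.09 in untreated young livers and at 13.42, 13.44 and 13.50 at 48 h. Cox6b2 has a single position on chromosome 7, and of 5 neighbouring genes in the RefSeq order that were measured (Kmt5c, Il11, Brsk1, Tmem150b and Tmem190, chosen after the Cox6b2 values were seen) none rose over sham at 48 h in either age. Against untreated livers at 38 h in old mice, where Cox6b2 rose by 0.76, Brsk1 rose by 0.29 (adjusted p = 0.015) and Tmem150b by 0.33 (adjusted p = 0.023, limma). Against sham at 48 h Tmem190 differed by -0.29 in young and -0.26 in old livers (adjusted p = 0.02 and 0.04 in limma).

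**Figure D4:**
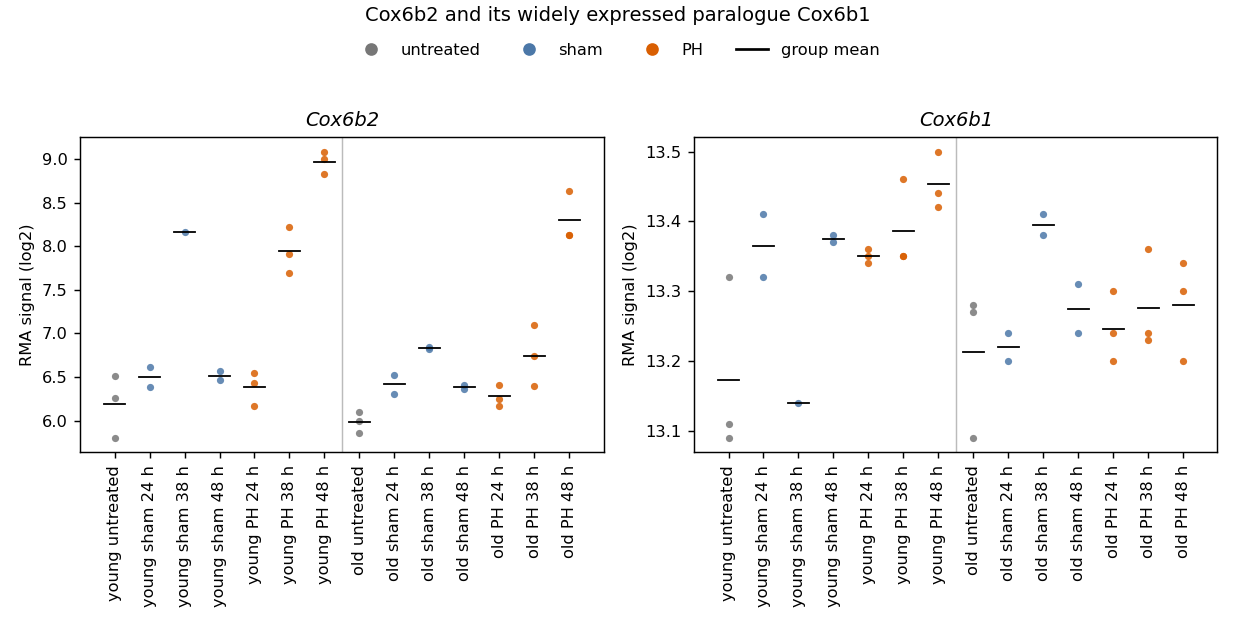
Each point is 1 array of Cox6b2 and of Cox6b1, on the log2 signal scale by group. Cox6b2 is at 8.13 to 9.09 on all 48 h PH arrays and at 5.80 to 6.51 on untreated ones, and the lone young 38 h sham array is at 8.16.

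The other complex IV isoforms changed on few arrays. Cox8b, the heart and muscle form of subunit VIII, was at 6.37, 6.45 and 6.58 in untreated young livers and at 7.97, 6.64 and 6.89 at 24 h after PH. The rise of 0.70 ± 0.22 (adjusted p = 0.0277 in limma) became 0.30 without PH replicate 1 (adjusted p = 0.253). The 7 adipose markers were at 7.24 to 9.34 in that group and at 6.76 to 7.02 in untreated young livers, and their part in the Cox8b value was not tested. Cox7a1, the heart and muscle form of subunit VIIa, was at 7.21 and 7.13 in old sham livers at 38 h and at 6.49, 6.25 and 6.37 after PH. It differed by -0.80 ± 0.18 (adjusted p = 0.0117 in limma) between them and by -0.21 with the old shams of all times pooled (adjusted p = 0.5). The 11 striated muscle markers were at 6.85 to 7.77 in old shams at 38 h and at 6.84 to 6.92 after PH, and their part was not tested. Cox4i2, a hypoxia-associated form of subunit IV, rose by 0.35 over untreated in old livers at 38 h (adjusted p = 0.011 in limma).

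Against sham livers of the same age and time, few members passed in young livers before 48 h. At 24 h only Cox7a2 rose (of all genes 0.709% passed, 0.588% rose and 0.121% fell), and at 38 h Cox7a2, Ndufa8 and Ndufab1 rose (6.06% of all genes passed, 4.60% rose and 1.47% fell). At 48 h 9 members rose and 2 fell (18.4% of all genes passed, 11.1% rose and 7.30% fell). These 48 h rises were led by Cox6b2, Ndufaf5 (0.84 ± 0.18, adjusted p = 0.00236) and Ndufaf2 (0.78 ± 0.17, adjusted p = 0.00214, limma), and included Ndufa8 and Cox7a2. The falls were Ndufa4l2, a hypoxia-associated relative of Ndufa4, by -0.33 ± 0.10 and Uqcrq by -0.20 ± 0.07. The young 48 h count of 11 became 5 and 6 without sham replicates 1 and 2 and 6 and 7 without PH replicates 1 and 3. With arrays centred on their medians it was 14 rises and no fall, and with quantile normalization repeated 7 rises and 4 falls. The young 24 h call was lost without either sham array or without PH replicate 1 or 2. The young 38 h count of 3 became 1 without PH replicate 3, and quantile normalization gave 1 rise and 1 fall.

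In old livers, 1 member passed against sham at 24 h, 10 at 38 h and 6 at 48 h. The 24 h one was a fall of Sdha by -0.49 ± 0.15 (adjusted p = 0.032 in limma), where 11.3% of all genes passed, 7.51% rose and 3.80% fell. All 10 at 38 h were falls, where 4.79% of all genes passed, 2.30% rose and 2.49% fell. They included Sdhb (-0.68 ± 0.13, adjusted p = 0.00388), Sdha (-0.58 ± 0.15, adjusted p = 0.0242), Ndufa9 (-0.52 ± 0.13, adjusted p = 0.022) and Cox7a1. The others were Ndufa6, Ndufaf3, Sdhd, Ndufs3, Ndufv1 and Uqcrc2, the latter a core protein of complex III. In this comparison 66 of the 77 members lay below sham, with a median of -0.21 against 0.04 over all genes. At 24 and 48 h the member median against sham was -0.04 and -0.002 in old livers. Relative to untreated, the median of all members was 0.03 and 0.11 on the old 38 h sham arrays. It was -0.22 and -0.05 on the 24 h shams, -0.13 and -0.08 on the 48 h shams and -0.16 to -0.05 on the 38 h PH arrays. The part of the higher 38 h shams in the falls was not tested. Sdhb was at 12.93 and 13.15 on the 38 h sham arrays, above or within its untreated range, and at 12.59, 12.28 and 12.20 after PH. The count of 10 became 2 and 1 without sham replicates 1 and 2, 20 and 19 without PH replicates 1 and 2, and 2 without PH replicate 3. It was 5 with the shams of all times pooled and 0 with only the arrays compared, a fit in which no gene at all passed.

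At 48 h in old livers 4 members rose over sham and 2 fell, where 15.0% of all genes passed, 8.46% rose and 6.56% fell. The rises were Cox6b2, Ndufaf5 (0.67 ± 0.18, adjusted p = 0.0161), Ndufaf2 (0.53 ± 0.17, adjusted p = 0.0359) and Cox7a2 (limma). Each of these 4 also rose over sham at 48 h in young livers. The falls were Ndufa4l2 (-0.31 ± 0.10) and Cox8c, a testis-type isoform (-0.28 ± 0.08). The count of 6 became 2 and 1 without sham replicates 1 and 2 and 2 without PH replicate 3. With arrays centred on their medians it was 8 rises and no fall, and with quantile normalization repeated 4 rises and 5 falls. The single 24 h call in old livers was lost without either sham array or without PH replicate 1, and 3 rises and 5 falls passed without PH replicate 3.

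Members also changed after sham surgery, but a smaller share of them passed than of all genes. As a mean over the 3 times, 8 members rose and 10 fell in young livers. These were 10.4% and 13% of members, 23.4% together, where 33.6% of all genes passed, 16.5% rose and 17.1% fell. In old livers 6 rose and 9 fell, which were 7.79% and 11.7% of members, 19.5% together. There 28.3% of all genes passed, 15.7% rose and 12.6% fell. In young livers the largest falls were Ndufaf6 (-0.63 ± 0.20), Uqcrc1 (-0.40 ± 0.09), Ndufs1 (-0.39 ± 0.13) and Ndufaf1 (-0.37 ± 0.11). The largest rises there were Cox6b2 (0.87 ± 0.16), Ndufs5 (0.55 ± 0.14), Sdhaf1 (0.43 ± 0.12) and Ndufa2 (0.42 ± 0.08). The Cox6b2 mean includes the single 38 h array at 8.16. In old livers Ndufaf6 (-0.58 ± 0.19) and Ndufaf1 (-0.30 ± 0.11) also fell, with Ndufab1 and Sdhd, and Cox6b2 (0.56 ± 0.15), Ndufs5, Cox6a2 and Ndufa2 rose. With quantile normalization repeated, these splits were 18 rises and 2 falls in young and 10 rises and 3 falls in old livers. With arrays centred on their medians they were 7 and 14, and 4 and 17. The young count of 18 became 10 and 11 without untreated replicates 1 and 3, and the old count of 15 became 6 and 3 without untreated replicates 1 and 2 and 9, 7 and 7 without replicate 1 of the 24, 38 and 48 h shams.

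Untreated old and young livers did not differ in any member by limma (0.236% of all genes passed, 0.176% higher and 0.0605% lower), and 6 members had an unadjusted p under 0.05. After sham surgery 0 members passed (0.0495% of all genes, 0.0385% higher and 0.0110% lower), and 3 had an unadjusted p under 0.05. At 24 h after PH, 16 members were lower in old than in young livers and none was higher, where 7.38% of all genes passed, 4.51% higher and 2.87% lower. These 16 were 3 core and 6 accessory subunits of complex I, 3 subunits of complex II, 2 complex I and 1 complex II assembly factor, and 1 subunit of complex IV. The largest differences were in Ndufaf6 (-0.98 ± 0.22, adjusted p = 0.0129), Ndufb10 (-0.82 ± 0.19, adjusted p = 0.0147), Ndufaf5 (-0.55 ± 0.17, adjusted p = 0.0445) and Ndufab1 (-0.52 ± 0.11, adjusted p = 0.0123, limma). The probe sets of Ndufab1, Sdha and Sdhaf2 did not all have the same sign in this comparison. In all, 67 members lay lower in old livers, with a median of -0.18 against -0.03 over all genes. The count of 16 became 4, 0 and 7 without young PH 24 h replicates 1, 2 and 3, and 2 and 3 without old PH 24 h replicates 1 and 2. It was 0 with only the arrays compared, where no gene passed.

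At 38 h after PH, 2 members were lower in old than in young livers, where 2.01% of all genes passed, 0.506% higher and 1.51% lower. These were Cox6b2 (-1.20 ± 0.17, adjusted p = 0.000858) and Ndufab1 (-0.53 ± 0.11, adjusted p = 0.0143, limma). The Ndufab1 probe sets did not all have the same sign in this comparison. The count was 1 without young PH 38 h replicate 3 or old replicate 3, 6 without old replicate 1 and 4 without old replicate 2. At 48 h none passed in limma (0.0824% of all genes, 0.0550% higher and 0.0275% lower), although 64 members lay lower in old livers and 12 had an unadjusted p under 0.05. The difference between ages in the response to PH, tested directly against sham, passed in limma for no member at 24, 38 or 48 h (0%, 0.0879% and 0% of all genes), with unadjusted p under 0.05 for 7, 21 and 0 members. So a member that passed in 1 age and not in the other is not shown to respond differently.

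The PH differences of the 77 members from untreated livers were correlated between the ages across genes, which use no arrays in common. Pearson's r was 0.62, 0.74 and 0.91 at 24, 38 and 48 h, and 0.62, 0.70 and 0.80 without Cox6b2, against 0.58, 0.72 and 0.88 over all genes. Genes are not independent replicates, so these are descriptions. The old differences were lower than the young ones in 67, 62 and 64 of the 77 members, by a median of -0.19, -0.13 and -0.14.

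**Figure D5:**
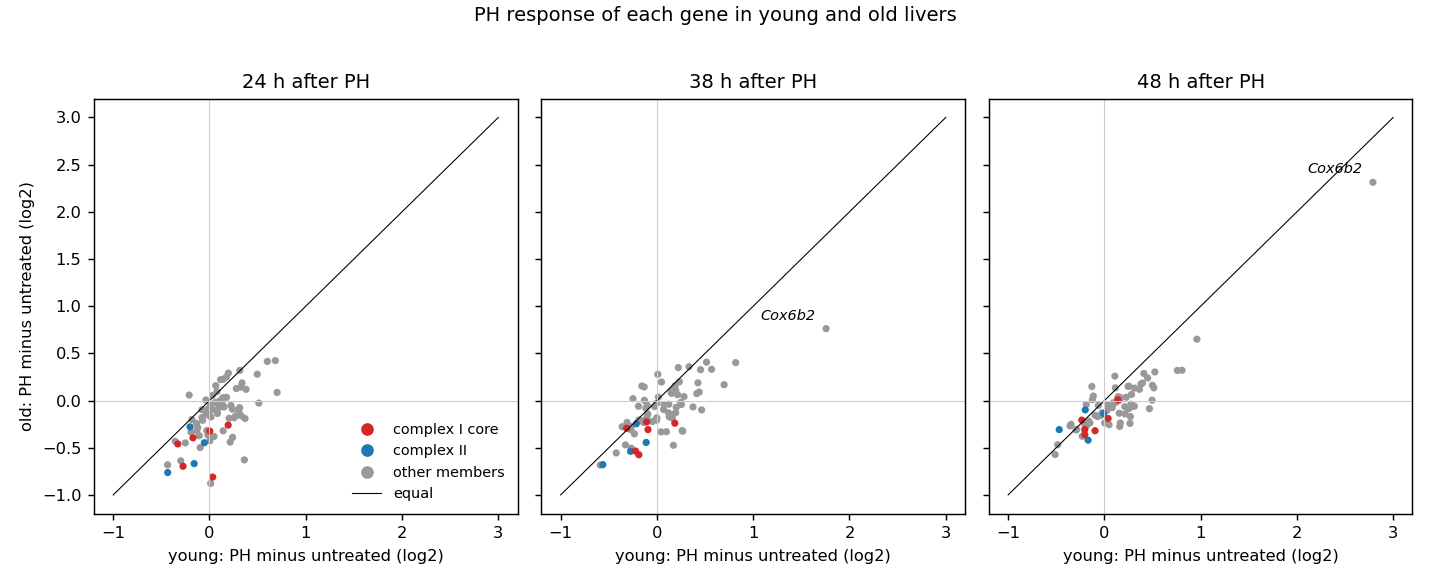
Each point is 1 member, with its log2 difference of PH from untreated in young livers on the x axis and in old livers on the y axis, at 24, 38 and 48 h, and the diagonal marks equal differences. Most points lie below the diagonal (67, 62 and 64 of 77), including those of complex II (blue) and the core of complex I (red) at 24 h.

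Within groups, members tended to vary together between arrays. Over 34 arrays of groups with at least 2 arrays, and after subtracting group means, the median pairwise correlation of the 70 members that were not dim was 0.36, against 0.00 over all genes. It was 0.60 in complex II, 0.53 in the core and 0.52 in the accessory subunits of complex I, 0.49 in complexes III and IV and 0.20 in assembly factors. Without the old 24 and 38 h PH arrays (28 arrays) it was 0.54 over these members and 0.71 in the accessory subunits. The arrays share their normalization, and the values are given as descriptions. A total of 62 members passed in at least 1 of the 22 comparisons, against 74.9% of all genes, and the other 15 had differences from -0.70 to 0.53. The share of members is thus near that of all genes.

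Genes of neighbouring mitochondrial pathways were read from the same fit. Of 76 mitochondrial ribosomal proteins, which translate the subunits encoded in mitochondrial DNA, 31 rose over sham at 48 h in young livers and 11 in old, and none fell, where 11.1% and 8.46% of all genes rose. Mrps6 had the largest of these rises, 1.72 ± 0.13 in young (adjusted p = 6.75e-09 in limma) and 1.48 in old livers. Against untreated livers 15 rose and 4 fell in old livers at 24 h, when 4 respiratory chain members rose and 26 fell, and 11.7% of all genes rose and 12.6% fell. Of 20 ATP synthase genes, 7 fell and none rose in that comparison, and at 48 h against sham 3 rose in young and 2 in old livers. The ATP synthase inhibitor Atpif1 rose by 1.52 ± 0.31 in young (adjusted p = 0.00105 in limma) and by 1.45 in old. Of 32 assembly factors outside the symbol rule, 3 rose and 11 fell in old livers at 24 h, and Timmdc1, a complex I assembly factor, differed by -1.15. The copper chaperone of complex IV, Sco2, fell by 1.14 on the log2 scale against sham in young livers at 48 h. Of 15 electron carrier and coenzyme Q genes, 3 rose and 1 fell there.

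Of 17 citric acid cycle genes, 5 rose over sham in young and 4 in old livers at 48 h (all genes 11.1% and 8.46%), while in old livers 0 rose and 5 fell against untreated at 24 h (12.6% of all genes fell). Of 16 mitochondrial chaperones and proteases, 5 rose over sham in young livers at 48 h and none passed in old ones. Among 19 regulators of mitochondrial biogenesis, 9 fell and none rose against untreated livers at 48 h in young, and 7 fell in old, where 14.5% and 8.62% of all genes fell. Gabpa, the ETS subunit of GABP whose motif was searched above, was lower than untreated by 1.02 to 1.17 on the log2 scale in every PH group and differed by -0.97 and -0.82 after sham surgery in young and old livers. These lists were chosen with earlier results of these data known and are given as counts.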

How the data were processed

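RNA from 35 mouse livers was hybridised to Affymetrix arrays, 1 sample each, after labelling 5 µg of RNeasy-purified RNA per the labels. The authors deposited log2 signals made with RMA, per the submitters' processing notes, for 45101 probe sets, but the RMA version, the genome build and the set of arrays normalized together were not given in the sources used here. RMA equalises probe signals between arrays, but the upper percentiles of the deposited values still differed between arrays. Probe sets with 1 symbol in the platform table (34945) were used, per gene the one with the highest mean over all arrays. The 77 members have 154 probe sets, and 43 have over 1. A further 10 probe sets that list several symbols, 3 of them for no gene among the members, were left out.

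Means of the 14 groups were fitted in limma 3.58.1 (R 4.3.3) with eBayes over all 35 arrays, with Benjamini-Hochberg adjustment over 18193 genes per comparison. For the 1 group with a lone array, the spread of the other groups stands in. Residual spread is pooled, and the number of arrays limits the precision. The fit was tested on simulated data. Members, lists and rules were chosen with earlier results of these data known. Named were members past the threshold (all if 8 or fewer, otherwise the 4 largest rises and 4 largest falls), 1 subunit per complex and isoform pairs; others named were chosen after their values were seen. Alternatives changed probe sets, dim genes, scaling, weights, arrays, controls and a replicate block. Figures used matplotlib 3.10.9 in Python 3.11.15.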

Additional observations from a re-analysis of the deposited data

Results flagged for a closer look

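At 24 h after PH the median of all 77 members lay above the untreated mean on every young array (0.05 to 0.09) and below it on every old one (-0.19 to -0.14), so that old minus young was -0.22. At 48 h the same held, with young arrays at 0.07 to 0.14 and old ones at -0.12 to just below 0, and old minus young was -0.18. These 2 differences of medians were not tested. Old sham arrays also lay below the untreated mean, at -0.22 and -0.05 at 24 h and -0.13 and -0.08 at 48 h. Their ranges overlapped those of the old PH arrays at both times. Young sham arrays were at 0.01 and -0.05 at 24 h and from just below 0 to 0.03 at 48 h.

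Single members, each read on its brightest probe set, showed the same opposite sides. Against untreated in young livers, of those named here only Ndufa7 passed, at 24 h. At 24 h old minus young was -0.99 for Ndufb10 (young 0.34 to 0.38, old -0.88 to -0.49), -0.63 for Ndufab1 (young 0.22 to 0.28, old -0.62 to -0.24), -0.49 for Ndufa7 (young 0.31 to 0.34, old -0.36 to -0.04) and -0.46 for Ndufs4, an accessory subunit that stabilises the NADH-oxidising module (young 0.08 to 0.20, old -0.40 to -0.26). At 38 h it was -0.64 for Ndufab1 (young 0.03 to 0.33, old -0.79 to -0.31) and -0.43 for Ndufs4 (young 0.04 to 0.21, old -0.43 to -0.24). The age difference of the response against untreated did not pass in limma for any of them, with adjusted p of 0.164, 0.148, 0.162 and 0.195 at 24 h and 0.0846 and 0.148 at 38 h, in the order given. Against untreated in old livers, the 4 Ndufs4 probe sets did not all have the same sign at 24 or at 38 h. Nor did the 5 Ndufab1 probe sets between old and young PH livers at these times. No group had enough arrays for a test of outlying samples.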

How the results depend on the processing

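Over the 327 counts of members under alternatives, 231 were within 1.5 times the main count. Of 3137 values of members that passed, 2370 passed again in the same direction, 766 did not pass and 1 reversed, which was Ndufab1 against sham in young livers at 48 h (-0.12 as the mean over all its probe sets). The rises of Cox6b2 at 48 h passed under each of the alternatives that keep it, which leaving out dim genes does not. The member median of sham against untreated in old livers also reversed, to 0.008 with quantile normalization repeated. With only the arrays compared, the counts were 0 for PH against untreated in old livers at 38 h, PH against sham in young at 38 h and in old at 24 and 38 h, and old against young PH at 24 and 38 h, 8 for PH against untreated in old at 24 h, 3 for PH against sham in young at 24 h and 1 for old against young sham. This fit kept 102 of 221 values of members past the threshold, and it has fewer arrays to estimate the spread. With array weights, whose estimation did not converge, PH against untreated gave 32, 42 and 37 in young livers and 27 in old at 48 h, PH against sham 12, 5 and 17 in young and 21 and 18 in old at 24 and 48 h, young sham against untreated 31, and old against young 48 at PH 24 h, 3 at PH 48 h, 1 in shams and, in the response to PH, 3 at 24 h and 1 at 38 h. With shams pooled over times PH against sham gave 5 and 10 in young livers at 24 and 38 h and 24 and 5 in old. Without the 2 arrays least like their group, chosen after seeing the data, PH against untreated gave 26 in young livers at 24 h and 23 in old at 48 h, PH against sham 4 in young at 24 h and 6 and 10 in old at 38 and 48 h, old against young PH 1 at 38 h, and the age difference of the response 1 at 38 h. Leaving out dim genes gave 2 and 5 for PH against sham at 24 h in young and old livers, 9 for old sham against untreated and 1 for old against young PH at 38 h. Centring arrays on their medians gave 2 and 2 for PH against sham at 24 h and 1 for the age difference of the response at 38 h. Repeating quantile normalization gave 18 for PH against untreated in old livers at 38 h and 5 for PH against sham in old at 24 h, and the mean over all probe sets of a gene gave 0 for the latter. The causes were not tested.

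A fit with the replicate number as a replicate block gave 2 for PH against sham in old livers at 24 h and moved no other count by over 1.5 times. Arrays of the same number did not deviate together, with a median correlation of -0.002 over 184 pairs, of which 41 (22.3%) were over 0.1, against 0 over 348 pairs of different numbers, so the numbers were not taken to pair the samples.

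Leaving out each array in turn, except the lone young 38 h sham, PH against sham gave 0 to 1, 1 to 3 and 5 to 10 in young and 0 to 8, 1 to 20 and 1 to 5 in old livers at 24, 38 and 48 h. PH against untreated gave 3 to 21, 16 to 31 and 17 to 31 in young and 17 to 28, 19 to 29 and 6 to 14 in old. Sham against untreated gave 10 to 21 in young and 3 to 16 in old. Old against young gave 0 to 23 at PH 24 h, 1 to 6 at PH 38 h, and 0 to 0 untreated, in shams and at PH 48 h. The age difference of the response gave 0 to 0, 0 to 1 and 0 to 0. In the comparison of that response at 38 h, the 1 call came without young PH replicate 1 or old PH replicate 1 or 2. Dim members such as Cox6b2 and Cox8b lie near background, where RMA compresses differences.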
